A study of Mus musculus with 36 samples.

Results

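Followed here are 10 genes of Toll-like receptor and IL-1 signalling in the brains of mice that lost Dicer in adult neurons: Cd14, Ly96, Tlr2, Tlr4, Myd88, Nfkbia, Il1b, Il1r1, Il1rap and Il6st. They were taken by name, with every probe set of the array that is annotated to 1 of them and to no other gene, which gave 25 of the 45101 probe sets and 10 of the 18193 genes that have such a probe set. RNA of cortex, hypothalamus and hippocampus was hybridised to 36 Affymetrix whole-genome mouse arrays in 12 groups of 3, each array from 1 animal, with both cortex and hypothalamus taken from 11 of the animals. All animals were C57BL/6J mice carrying Cre+/Dicerlox/lox, that is, a Camk2a-CreERT2 transgene, whose promoter is active mainly in excitatory forebrain neurons, and floxed Dicer alleles. The cKO mice received tamoxifen, 10 mg in all over 5 days from the age of 8 weeks, the control mice received the oil and ethanol vehicle alone, and tissue was taken 4 or 8 weeks later. No group received tamoxifen without floxed alleles, so the drug and the loss of Dicer cannot be told apart.

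Toll-like receptors recognise microbial products and molecules released by damaged cells. Tlr4 does so in a complex with MD-2, the product of Ly96, and takes its ligand from Cd14, a surface protein that also serves Tlr2. Both receptors, and the IL-1 receptor made of Il1r1 and its accessory chain Il1rap, signal through the adaptor Myd88 to NF-kB, which is held in the cytoplasm by the inhibitor encoded by Nfkbia and induces both Nfkbia and Il1b. Il6st encodes gp130, the shared chain of the receptors for IL-6, LIF and oncostatin M. In the brain, Cd14, Tlr2, Tlr4 and Il1b are expressed chiefly by microglia and macrophages.

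Because Nfkbia, Tlr2 and Il1b are known NF-kB targets, the promoters of 7 of the 10 members were searched for motifs. They were read from the RefSeq promoter table (build GRCm38.p6, 250 bases before and 50 after a gene's start). Promoters of Cd14, Ly96 and Tlr4 were not searched, so their motifs are not known here. The consensus NF-kB decamer, searched on both strands, occurred in 8.46% of all 32851 promoters of this length and in those of Tlr2, Nfkbia and 1 of 2 starts of Il1r1. The sequences of Tlr2, Nfkbia and Myd88 are shown 5′ to 3′ on the strand of the gene, because these are the receptor, the inhibitor and the adaptor described below. Capitals mark matches to the NF-kB decamer, of which Tlr2 has 2 that overlap.
Tlr2, chr3:83841559-83841858, minus strand: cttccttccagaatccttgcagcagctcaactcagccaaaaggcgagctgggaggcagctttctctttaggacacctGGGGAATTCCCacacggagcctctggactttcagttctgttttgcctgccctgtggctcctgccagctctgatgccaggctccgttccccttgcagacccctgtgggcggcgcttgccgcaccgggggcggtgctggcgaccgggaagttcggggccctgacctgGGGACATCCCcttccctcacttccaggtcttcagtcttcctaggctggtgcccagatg
Nfkbia, chr12:55492598-55492897, minus strand: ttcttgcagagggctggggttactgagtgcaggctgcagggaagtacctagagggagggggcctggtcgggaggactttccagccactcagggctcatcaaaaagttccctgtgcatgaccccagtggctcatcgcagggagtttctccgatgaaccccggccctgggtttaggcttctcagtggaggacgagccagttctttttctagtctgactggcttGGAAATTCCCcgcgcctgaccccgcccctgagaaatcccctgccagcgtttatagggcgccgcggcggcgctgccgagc
Myd88, chr9:119339969-119340268, minus strand: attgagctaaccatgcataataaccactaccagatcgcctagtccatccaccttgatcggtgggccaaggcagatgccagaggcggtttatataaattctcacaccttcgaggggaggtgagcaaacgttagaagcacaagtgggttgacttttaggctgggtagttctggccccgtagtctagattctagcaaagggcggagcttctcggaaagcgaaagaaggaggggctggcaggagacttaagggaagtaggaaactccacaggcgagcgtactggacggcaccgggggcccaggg
In Tlr2 the overlapping matches lie at positions -173 to -163 and a further match at -8 to 2, counted from the start with no position 0, and in Nfkbia the match lies at -29 to -20. The motifs TGANTCA for AP-1, TGACGTCA for the cAMP response element and GAGGAAG for PU.1, also searched on both strands and found in 7.81%, 1.79% and 13.6% of all promoters, had no match in these 7 genes. A match is a string of letters and not evidence of binding, and the array measured no binding.

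Values are RMA log2 levels, normalised by the authors in each tissue separately, so that levels compare between arrays of 1 tissue only. A difference is the mean of cKO minus that of control on the log2 scale, with its standard error (SE) and a Benjamini-Hochberg adjusted p from limma over all genes tested in that tissue, with 3 arrays per group. A gene was called at a false discovery rate of 15%. Each gene was tested on its most variable probe set above a filter on low values. All 10 members passed it in cortex and hypothalamus and 8 in the arrays labelled hippocampus, where Ly96 and Tlr4 lay below it. Probe sets were kept down to a third-highest value among the 12 arrays of 4.30 in the cortex and 4.88 in the hypothalamus. Ly96 passed only through cKO arrays in the cortex, and only through 8-week cKO arrays in the hypothalamus. Dicer1 transcript, which loses a single exon in this model, did not pass the test in any comparison, and its 2 probe sets differed by -0.09 to 0.45, so it does not check the labels.

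Arrays were checked against markers of their region before the members were compared. Cortex arrays had Neurod6 and Slc17a7, genes of excitatory forebrain neurons, at 6.33 to 8.35 and 9.19 to 9.52, and in the hypothalamus arrays Pmch and Hcrt, neuropeptides of the lateral hypothalamus, lay at the 99.9th and 99.2th percentile of all probe sets. Of the 12 arrays labelled hippocampus, 11 had Neurod6 between 2.68 and 3.31, Slc17a7 between 3.74 and 4.41 and Lct, a hippocampal marker, between 3.24 and 3.66. The remaining array, cKO replicate 1 at 8 weeks, had 9.05, 7.56 and 8.51 for the same 3 genes. Of the other listed hippocampal markers, Dsp, C1ql2 and Prox1 were 8.11, 8.34 and 6.25 there, against at most 3.69, 6.71 and 4.78. Fibcd1 hardly separated it, at 7.75 against 7.67 in control replicate 3 at 4 weeks. The 11 arrays thus lack several defining transcripts of their label, and they are called by that label without another name. They also differed among themselves at 4 weeks, in markers chosen after values were seen: Gabra6, of cerebellar granule cells, was 7.14 in cKO replicate 2 against at most 4.91 in the others, and Tph2, of serotonin neurons, was 7.31 and 5.89 in cKO replicates 3 and 2 against at most 3.62. Each 8-week result of a member that rests on cKO replicate 1 is given with and without that array. Array replicates that correlated least with their group were replicate 3 of control and of cKO at 4 weeks and replicate 2 of cKO at 8 weeks in the cortex, and replicate 1 of control at 4 weeks and replicate 3 of cKO at 8 weeks in the hypothalamus.

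In the hypothalamus 8 weeks after tamoxifen, Cd14 and Tlr2 were far above control in 2 of 3 cKO animals, Ly96 and Myd88 were slightly above control in all 3, and the tested probe sets of the IL-1 receptor chains were within 0.11 of control. None of the 10 members was called, nor was any gene tested (0% called by limma). At an unadjusted p under 0.05 by limma, 5 of the 10 members were higher and none lower, against 4.61% and 2.01% of all genes. By an unpaired t-test of the same arrays, which the paper's methods do not name for the arrays, none reached that level.

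Cd14, the co-receptor, measured 7.96, 7.67 and 6.23 in the cKO hypothalami at 8 weeks, against 5.96, 5.96 and 5.83 in the controls. All 3 cKO arrays lay above all controls, but replicate 3 by far less than replicates 1 and 2. The difference was 1.37, a 2.58-fold higher level (SE 0.32, adjusted p = 0.370). Without cKO replicate 3, the cKO array with the lowest Cd14, it was 1.90 (SE 0.10) and was called, with an adjusted p of 2.45e-06 by limma. That SE leaves out the spread among all 3 cKO animals. No other array, left out alone, gave a called member in this comparison.

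Tlr2, which recognises bacterial lipoproteins, was 7.86, 7.16 and 6.31 in the cKO hypothalami and 6.18, 6.27 and 6.33 in the controls, so replicate 3 lay among the controls. The difference of 0.85 (SE 0.29, adjusted p = 0.510) became 1.25 (SE 0.19, adjusted p = 0.00376) without that array. For Myd88, the adaptor, the values were 7.71, 7.70 and 7.41 in cKO and 7.32, 7.31 and 7.37 in control mice. These groups did not overlap, and the difference was 0.27 (SE 0.09, adjusted p = 0.523), or 0.37 (SE 0.09, adjusted p = 0.0693) without cKO replicate 3. With that array left out, Cd14, Tlr2 and Myd88 were the members called, 3 of 10, beside 514 of all genes (3.32%), and the same 3 members were called with array weights, where 558 genes (3.61%) were.

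Ly96, the partner of Tlr4, measured 5.49, 4.94 and 5.05 in the cKO hypothalami and 4.86, 4.59 and 4.59 in the controls. Its groups did not overlap either, and replicate 3 was here no lower than replicate 2. The difference was 0.48 (SE 0.16, adjusted p = 0.496). Cd14, Ly96 and Myd88 were thus the 3 of 10 members with all cKO arrays above all controls, a state that 6.27% of all genes showed in this comparison. Ly96 exceeded the filter's cut of 4.88 only in these cKO arrays, so it entered this count through the group in which it was high.

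Tlr4 gave no single answer, since its 4 probe sets disagreed. The tested one, 1418163_at, measured 5.54, 5.22 and 5.20 in cKO hypothalami, against 5.31, 5.41 and 5.27 in control ones, a difference of -0.01 (SE 0.12, adjusted p = 0.999). The dimmer 1418162_at, below the filter, was 3.71, 3.59 and 3.56 in cKO and 2.98, 3.32 and 3.40 in control mice, with no overlap and a difference of 0.39 (SE 0.10, adjusted p = 0.462 in a fit of every annotated probe set). The other 2 differed by 0.00 and 0.09.

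Of the NF-kB targets, Il1b, the cytokine itself, was 5.91, 5.59 and 5.52 in the cKO hypothalami, against 5.36, 5.53 and 5.33 in control mice. It differed by 0.27 (SE 0.12, adjusted p = 0.718), with replicate 3 of cKO just below replicate 2 of control. Nfkbia, the NF-kB inhibitor, was higher by 0.11 to 0.22 in each of its 5 probe sets, which share 1 transcript and are not replicates, and the tested probe set differed by 0.22 (SE 0.12, adjusted p = 0.858). In that probe set cKO replicate 1 stood highest at 7.90, while replicates 2 and 3, at 7.55 and 7.60, lay within the control values of 7.63, 7.34 and 7.42.

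The tested probe sets of the IL-1 receptor chains lay near 0. Il1r1 measured 6.35, 6.28 and 6.68 in cKO and 6.48, 6.44 and 6.50 in control hypothalami (difference -0.04, SE 0.11), and the highest value belonged to replicate 3, the array in which Cd14 was lowest of the cKO group. The 5 probe sets of Il1rap differed by -0.28 to 0.04, and the tested one, 1421844_at, by -0.11 (SE 0.14, adjusted p = 0.999). The lowest, 1439697_at at -0.28, had every cKO array below every control, as did 6.76% of all annotated probe sets. It was not called (adjusted p = 0.831 in the limma fit of every annotated probe set). Il6st differed by 0.12 to 0.26 over 4 probe sets, by 0.12 in the tested one (SE 0.16, adjusted p = 0.999), and its groups overlapped in each.

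**Figure D1:**
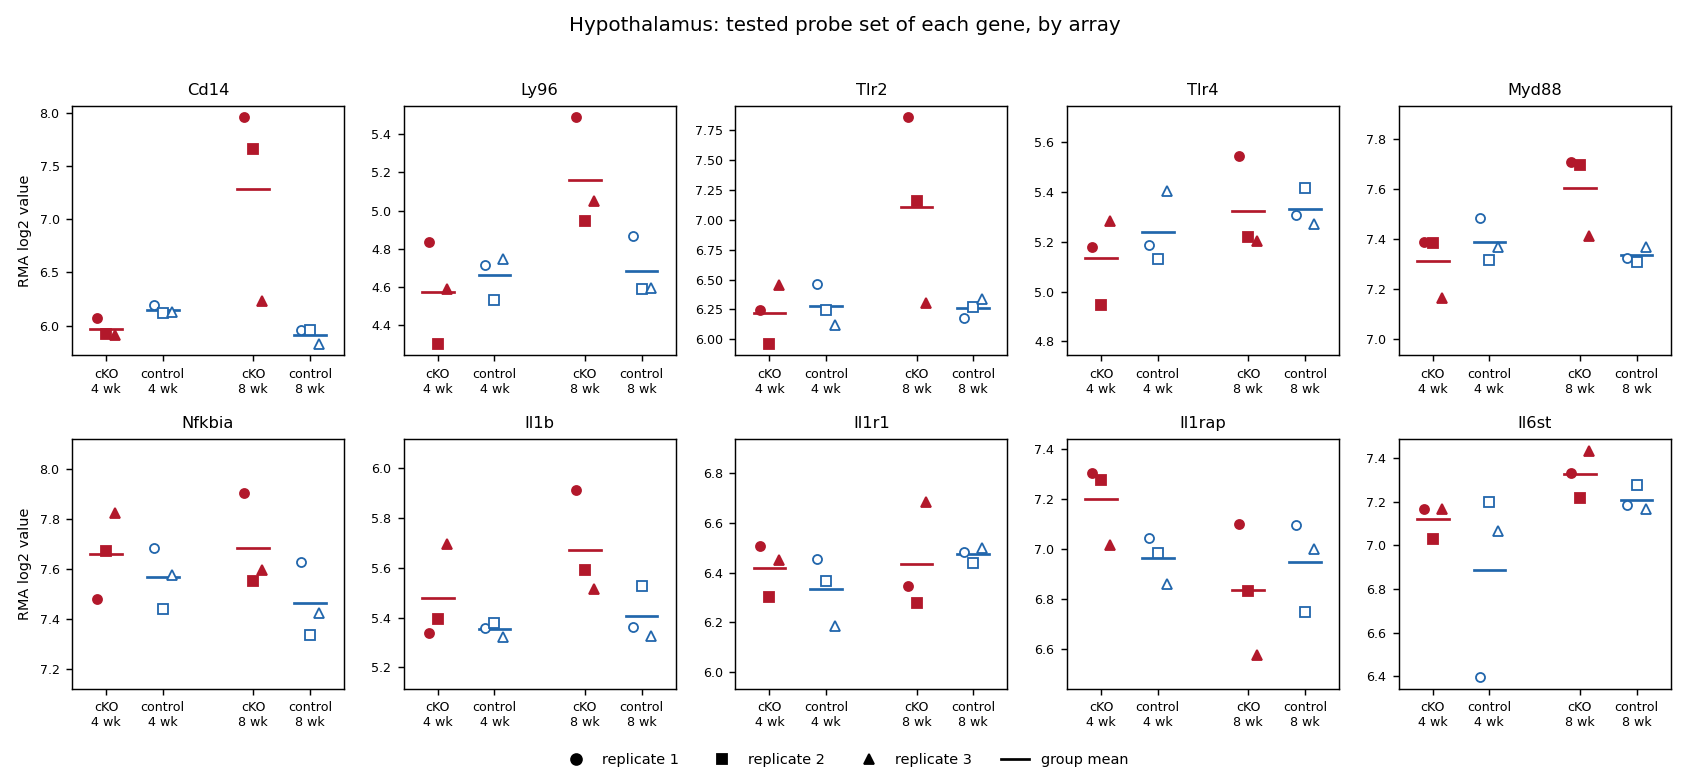
RMA log2 values of the tested probe set of each member in the hypothalamus, 1 symbol per array (filled cKO, open control), a bar for the group mean, and an axis scaled to each gene. At 8 weeks, cKO replicates 1 and 2 stand above every other array for Cd14 (7.96 and 7.67) and Tlr2 (7.86 and 7.16), while replicate 3 lies close to the controls, and at 4 weeks cKO and control lie together.

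Microglia markers moved with these members. Of 21 listed microglia genes, 20 were tested, and all 20 were higher in the cKO hypothalamus at 8 weeks, 16 of them at an unadjusted p under 0.05 and 0 called, with a median difference of 1.05, against -0.00 over all genes. Of all genes, 48.8% were higher, and 4.61% were so at an unadjusted p under 0.05 by limma. The median deviation of the list from its mean over the 12 hypothalamus arrays came to 1.53, 1.09 and -0.16 in cKO mice, against -0.15, -0.40 and -0.21 in control mice: replicates 1 and 2 were high and replicate 3 was not. In bulk tissue, more cells of a type and more RNA per cell cannot be told apart. Astrocyte genes were higher in 10 of 11 cases, 2 of them at an unadjusted p under 0.05 and 0 called, with a median of 0.19 and deviations of 0.20, 0.05 and 0.02 in cKO mice, against -0.06, -0.14 and -0.05 in control mice. Gfap, the intermediate filament of astrocytes, differed by 1.38 and Aqp4, their water channel, by 0.88 (adjusted p = 0.405 and 0.410). Lists of neutrophils and lymphocytes had medians of -0.05 and 0.02, and that of perivascular macrophages and monocytes 0.18. Their part in the differences of Cd14, Tlr2, Ly96 and Myd88 was not tested.

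**Figure D2:**
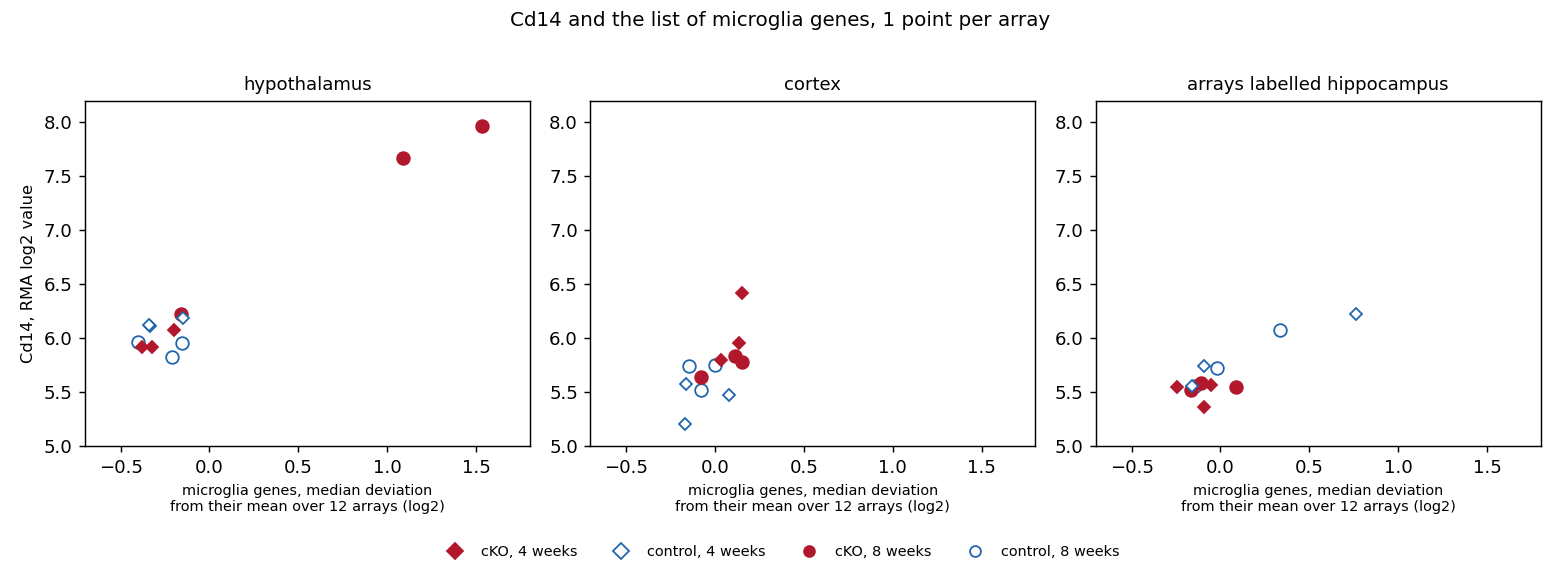
Cd14 (RMA log2 value) against the median deviation of the microglia list (log2), 1 point per array, for each tissue. In the hypothalamus, 2 of the 8-week cKO arrays, at 7.96 and 7.67, stand apart from the other 10, and in the arrays labelled hippocampus the 2 highest points are controls, at 6.23 and 6.08.

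At 4 weeks the cKO and control hypothalami lay close together. None of the 10 members was called, nor was any gene (0%). At an unadjusted p under 0.05 limma had none of the 10, where it had 2.75% of all genes, and the unpaired t-test had 1. Cd14 measured 6.07, 5.92 and 5.92 in cKO and 6.19, 6.12 and 6.12 in control mice, a difference of -0.17 with every cKO array below every control, as in 3.82% of all genes. Tlr2 differed by -0.06 and Ly96 by -0.09, and the 10 members had a median difference of 0.01, beside -0.01 for all genes.

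The changes at 8 and 4 weeks were also compared directly, as the difference at 8 weeks minus that at 4 weeks. In the hypothalamus this was 1.54 for Cd14 (SE 0.45), 0.90 for Tlr2 (SE 0.41), 0.57 for Ly96 (SE 0.22) and 0.35 for Myd88 (SE 0.13), each with an adjusted p of 0.999, and no gene was called (0%). These 4 members reached an unadjusted p under 0.05, as did 4.47% of all genes, and Ly96 had passed the filter only through its 8-week cKO arrays. Without cKO replicate 3 at 8 weeks, Cd14, at 2.07 (SE 0.13, adjusted p = 2.81e-05), and Tlr2, at 1.30 (SE 0.26, adjusted p = 0.0315), were called, beside 324 genes in all (2.1%). No other array, left out alone, gave a called member here.

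Other genes of the pathway were read from 7 lists of 100 genes in all. In the hypothalamus at 8 weeks none was called. Of all genes tested there, 48.8% were higher in cKO mice, and 4.61% were so at an unadjusted p under 0.05 by limma. Toll-like receptor partners were higher in 9 of 10 tested genes, with a median of 0.36. Ly86, the MD-1 partner of the Tlr4 homologue Cd180, was 12.11, 11.56 and 9.82 in cKO and 9.93, 9.56 and 9.82 in control mice, a difference of 1.39 (SE 0.42, adjusted p = 0.430) that again came from replicates 1 and 2. Unc93b1, which carries endosomal receptors, differed by 0.48 and Tlr3, a receptor for double-stranded RNA, by 0.34 (adjusted p = 0.510 and 0.571). In both genes cKO replicate 3 lay within the controls.

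Inflammasome genes, whose products release active IL-1β, were higher in all 5 tested cases, where 48.8% of all genes were. Pycard, the inflammasome adaptor, measured 9.24, 8.76 and 7.29 in cKO and 7.28, 6.97 and 7.24 in control hypothalami, with no overlap by a margin of 0.01 only, and a difference of 1.27 (SE 0.36, adjusted p = 0.410). Casp1, the protease that cleaves IL-1β, differed by 0.59 (adjusted p = 0.592), with cKO replicate 3, at 4.95, below every control. Gsdmd, the pore through which IL-1β leaves, differed by 0.24 (adjusted p = 0.430). The cytokine's own family was flatter, with 6 of 7 tested genes higher and a median of 0.09, and Il1rn, the receptor antagonist, differed by 0.19, Il18 by 0.19 and Il33 by 0.13 (adjusted p = 0.916, 0.718 and 0.982).

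Among NF-kB response genes 13 of 15 were higher, 8 of them at an unadjusted p under 0.05 by limma, with a median of 0.24. For all genes these shares were 48.8% and 4.61%. Icam1, an adhesion molecule, was 6.84, 6.37 and 5.76 in cKO and 5.56, 4.98 and 5.59 in control mice (difference 0.94, SE 0.24, adjusted p = 0.405). Ccl4, a chemokine, differed by 0.76 and Cebpd, a transcription factor of the acute-phase response, by 0.56 (adjusted p = 0.410 each), and for these 3 genes no cKO array overlapped the controls. Of the gp130 family, Osmr, the oncostatin M receptor that pairs with Il6st, was 7.62, 7.22 and 6.82 in cKO and 6.52, 6.06 and 6.51 in control mice, a difference of 0.85 (SE 0.22, adjusted p = 0.405). Socs3, the feedback inhibitor of gp130 signalling, differed by 0.52 and the ligand Osm by 0.20 (adjusted p = 0.410 and 0.704), also without overlap. Signalling proteins themselves stayed near 0, with medians of 0.02 for 14 adaptors and kinases and 0.01 for 11 NF-kB subunits and regulators, and Relb, an NF-kB subunit, at 0.34 (adjusted p = 0.741). Of the same lists, Rela, the p65 subunit of NF-kB, differed by 0.14 and Tnfaip3, an inhibitor of NF-kB signalling, by 0.22 (adjusted p = 0.815 and 0.791). The adaptor Ticam1 differed by 0.18, Tab2 by 0.20 and Tab3 by -0.19 (adjusted p = 0.867, 0.866 and 0.866).

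In the cortex at 4 weeks, the lipopolysaccharide co-receptors Cd14 and Ly96 were higher in cKO mice, while Tlr2 and Tlr4 were not called. Of the 10 members, 2 rose and none fell, in a comparison in which 5.23% of all genes were called, 4.25% upward and 0.979% downward, and the median difference of the members, 0.14, lay close to the 0.11 of all genes.

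Cd14 measured 6.42, 5.96 and 5.80 in the cKO cortices and 5.58, 5.21 and 5.48 in the controls. Every cKO array lay above every control, as for 16.1% of all genes, and the difference was 0.64, or 1.56-fold (SE 0.16, adjusted p = 0.114). For Ly96, the values were 4.34, 4.54 and 4.53 in cKO and 3.79, 3.76 and 3.73 in control mice, close together within each group, and the difference was 0.71, or 1.63-fold (SE 0.18, adjusted p = 0.120). Its control values lay below the filter's cut of 4.30, so Ly96 entered this test through the group in which it was high. In the limma fit of every annotated probe set, without the filter, its adjusted p was 0.123, where 2.87% of probe sets were called. The calls of Cd14 and Ly96 were lost when the arrays were centred on their medians, where the differences were 0.56 and 0.63 (adjusted p = 0.166 and 0.164). They were lost as well with the 6 arrays of this time alone (adjusted p = 0.353 for both). They were also lost without replicate 1 or 2 of either 4-week group (adjusted p = 0.261 to 0.376). The same held without 1 array of the 8-week groups, either cKO replicate 3 or any control (adjusted p = 0.151 to 0.179). More members were called without the 4-week cKO replicate 3 (4 of 10, beside 28.5% of all genes), of which 3 were higher and Il6st, at -0.89, was lower. With array weights 7 of 10 were called, beside 66% of all genes, 5 of them higher (Cd14, Ly96, Myd88, Il1r1 and Tlr4) and 2 lower, Il6st at -0.86 and Nfkbia at -0.48. Without the 3 arrays that stood apart, chosen after the data were seen, the same 7 were called (beside 62%), again 5 higher and Il6st and Nfkbia lower.

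Il1r1, the signalling IL-1 receptor, was 6.28, 6.06 and 6.37 in the cKO cortices, against 5.93, 5.50 and 6.14 in control ones. All cKO arrays but replicate 2 lay above the controls, and the difference of 0.38 (SE 0.15) was not called (adjusted p = 0.189). Myd88 split its groups, with 6.65, 6.71 and 6.30 in cKO and 6.03, 6.15 and 6.70 in control cortices, where replicate 3 of each group lay with the other genotype (difference 0.26, adjusted p = 0.381). Tlr2 measured 5.12, 5.27 and 5.15 in cKO and 5.11, 5.24 and 5.28 in control mice, a difference of -0.03. Il1b differed by 0.10 and Tlr4 by 0.18, and both overlapped.

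**Figure D3:**
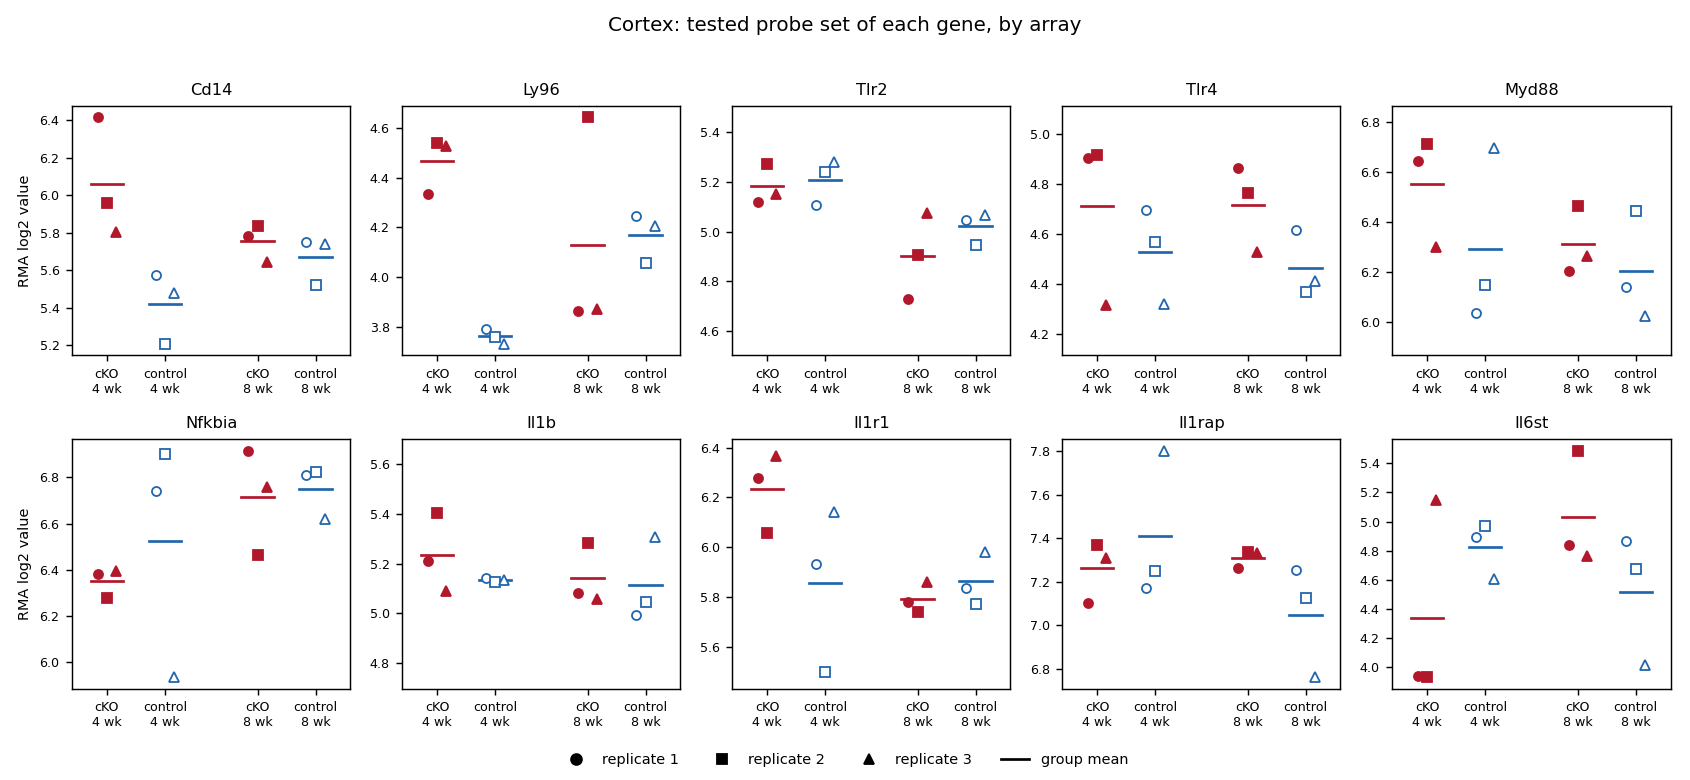
RMA log2 values of the tested probe set of each member in the cortex, drawn as for the hypothalamus. At 4 weeks the cKO arrays of Ly96 (4.34 to 4.54) and Cd14 (5.80 to 6.42) stand above all 4-week controls, and cKO replicate 3 of Il6st, at 5.15, stands apart from replicates 1 and 2.

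Several genes had probe sets that differed in sign in the cortex at 4 weeks. Il6st was tested on 1437303_at, which measured 3.94, 3.93 and 5.15 in cKO and 4.89, 4.97 and 4.61 in control mice, a difference of -0.49 (SE 0.33, adjusted p = 0.360) in which cKO replicate 3 lay above all controls. Its brightest probe set, 1452843_at, was 8.54, 8.67 and 8.36 in cKO and 8.19, 8.29 and 8.47 in control mice and differed by 0.20. Nuclear-retained transcripts such as Malat1 had median deviations of -1.48, -0.57 and 0.72 in the same cKO arrays and 0.43, 0.61 and 0.50 in the controls, and their part in the low values of 1437303_at was not tested. Nfkbia ranged from -0.17 in the tested 1420089_at to 0.27 in 1448306_at, and Il1rap from -0.15 in the tested 1442614_at to 0.28 in 1421844_at, none of them called.

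The cortex arrays at 4 weeks also differed in other ways. The median over all probe sets stood at 5.79 in each cKO array, against 5.67, 5.68 and 5.79 in control mice, with control replicate 3 at the cKO level. The 8-week cortices had medians of 5.69, 5.78 and 5.70 (cKO), against 5.68, 5.68 and 5.67 (control), so cKO replicate 2 was the 1 array of that time near the high level, and it was also the 8-week array with the highest Ly96 (4.64) and Cd14 (5.84). That control array had Cd14 at 5.48 and Ly96 at 3.73, below every cKO array, and without it 5 of 10 members were called, 4 higher (Cd14, Ly96, Myd88 and Il1r1) and Nfkbia lower, in a fit in which 46.3% of all genes were. Microglia genes had median deviations of 0.15, 0.14 and 0.04 in cKO and -0.16, -0.17 and 0.08 in control arrays, and 0 of 19 were called. Of perivascular macrophage and monocyte genes 2 of 6 rose, Ms4a7 by 0.57 and Pf4 by 0.41 (adjusted p = 0.137 and 0.140), with a median of 0.20 over the list and deviations of 0.42, 0.10 and 0.01 in cKO arrays, against -0.12, -0.20 and 0.14 in control arrays. Leptomeningeal genes rose in 10 of 13 cases, with a median of 0.84, where 4.25% of all genes rose and 0.979% fell. Cortical region markers fell in 2 of 4 cases with a median of -0.85, and hippocampal markers rose in 1 of 4 with a median of 0.99. The part of these in the differences of Cd14 and Ly96 was not tested.

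Of the pathway lists, adaptors and kinases had 2 of 14 genes that rose in the cortex at 4 weeks and none that fell. Of all genes, 4.25% rose and 0.979% fell there. Tollip, an inhibitor of IL-1 receptor signalling, was 6.23, 6.24 and 5.86 in cKO and 5.48, 5.53 and 5.81 in control mice, a difference of 0.50 (SE 0.14, adjusted p = 0.137). Tab3, which links the kinase Map3k7 to ubiquitin chains, rose by 0.41 (SE 0.13, adjusted p = 0.148). Tirap, the adaptor that brings Myd88 to Tlr2 and Tlr4, differed by 0.54 and missed the threshold (adjusted p = 0.167).

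Ikbkg, the regulatory subunit of the IkB kinase, was the 1 gene of 11 NF-kB subunits and regulators that rose, at 5.17, 5.17 and 5.07 in cKO and 4.00, 4.30 and 4.95 in control cortices (difference 0.72, SE 0.22, adjusted p = 0.148). Response genes held 2 of 15 that rose, where 4.25% of all genes did. Cebpd measured 6.57, 7.17 and 7.16 in cKO and 6.02, 6.25 and 6.23 in control mice (difference 0.80, SE 0.19, adjusted p = 0.113), and Ptgs2, the inducible cyclooxygenase, rose by 0.54 (SE 0.17, adjusted p = 0.148). Ccl2, a chemokine for monocytes, differed by -0.32 and missed the threshold (adjusted p = 0.161). In the gp130 family Osmr rose by 0.53 (SE 0.14, adjusted p = 0.134), at 5.99, 5.72 and 5.49 in cKO and 4.99, 5.37 and 5.27 in control mice, and was the 1 of 14 called. At an unadjusted p under 0.05 by limma that list had 2 genes higher and 4 lower, where 16.1% and 6.43% of all genes were. Tyk2, a kinase of cytokine receptors, was 5.55, 5.15 and 5.48 in cKO and 5.81, 5.86 and 5.63 in control mice (difference -0.37, SE 0.13, adjusted p = 0.165). Cntfr, the receptor of ciliary neurotrophic factor, was 4.61, 4.07 and 4.48 in cKO and 4.68, 4.76 and 4.90 in control mice (difference -0.39, SE 0.15, adjusted p = 0.179). In both genes every cKO array lay below every control, as for 2.99% of all genes, and neither was called.

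No gene of the lists of other Toll-like receptors, other IL-1 family members or the inflammasome was called in the cortex at 4 weeks. Among the receptors and their partners, Tlr3 differed by 0.33, Lbp, the lipopolysaccharide-binding protein, by 0.49 and Cd180 by -0.38 (adjusted p = 0.184, 0.186 and 0.192). For Cd180 every cKO array lay below every control, as for 2.99% of all genes. In the IL-1 family Il18bp, which binds IL-18, differed by 0.19, the receptor chain Il18rap by 0.15 and the decoy receptor Il1r2 by 0.07 (adjusted p = 0.386, 0.407 and 0.686). Of the inflammasome, Pycard differed by 0.31, Gsdmd by -0.14 and the ATP receptor P2rx7 by 0.18 (adjusted p = 0.198, 0.371 and 0.521). For Pycard every cKO array lay above every control, as for 16.1% of all genes. The NF-kB subunits Rela and Relb differed by 0.22 and 0.56 (adjusted p = 0.211 and 0.223), and Rela alone of them had no overlap.

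At 8 weeks the cKO and control cortices overlapped in both Cd14 and Ly96. Cd14 was 5.78, 5.84 and 5.64 in cKO and 5.75, 5.52 and 5.74 in control mice, a difference of 0.08. Ly96 was 3.86, 4.64 and 3.87 in cKO and 4.24, 4.05 and 4.21 in control mice, with replicate 2 of cKO alone above the controls (difference -0.04). Il1rap differed by 0.26, with every cKO array above every control, as for 10% of all genes. Il6st differed by 0.51 and Tlr4 by 0.25, both with overlap (adjusted p = 0.869 for each of the 3 genes). None of the 10 members or of all genes was called by limma (0%), and 0 members reached an unadjusted p under 0.05 by limma, where 4.74% of all genes did, or by the unpaired t-test. The change of Ly96 at 8 weeks minus that at 4 weeks was -0.75 (SE 0.25, adjusted p = 0.350) and that of Cd14 was -0.55 (SE 0.22, adjusted p = 0.364), in a comparison that called 1 gene (0.0068%). Both reached an unadjusted p under 0.05, as did 12.3% of all genes, and Ly96 had passed the filter only through cKO arrays. With array weights 6 of 10 members were called (50.7% of all genes), 4 with a negative difference over time (Cd14, Ly96, Myd88 and Il1r1) and Il6st and Nfkbia with a positive one, without the 3 arrays that stood apart the same 6 (48.9%), and without cKO replicate 3 at 4 weeks 2, Cd14 and Il6st (13.1%).

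In the arrays labelled hippocampus no member was called at either time, and no gene was (0% at both and for 8 weeks minus 4 weeks). None of the 8 tested members reached an unadjusted p under 0.05 by limma, where 6.31% of all genes did at 4 and 5.91% at 8 weeks, or by the unpaired t-test. Cd14 at 4 weeks was 5.55, 5.37 and 5.57 in cKO and 5.56, 6.23 and 5.75 in control mice, a difference of -0.35 in which control replicate 2 stood alone. Tlr2 was also highest in that control array, at 5.22, 5.42 and 5.49 in cKO and 5.49, 6.10 and 5.47 in control mice, and so was the microglia list, with a deviation of 0.77, against -0.24 to -0.05 in the other 5 arrays of that time. The same 3 readings were highest at 8 weeks in control replicate 3, with 6.08 for Cd14, 5.80 for Tlr2 and 0.33 for the list.

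Il1rap gave the largest difference of any member in these arrays, and it rested on the array that differed from the others in regional markers. Its tested probe set, 1442614_at, was 7.70, 5.65 and 5.80 in cKO and 5.27, 5.81 and 5.66 in control mice at 8 weeks, a difference of 0.80 (SE 0.41, adjusted p = 0.767). Without cKO replicate 1 it was 0.14 (SE 0.17, adjusted p = 0.921 in the fit of every annotated probe set). Another probe set, 1449585_at, below the filter, was 5.20, 4.62 and 4.75 in cKO and 4.48, 4.45 and 4.28 in control mice, with no overlap, and its difference of 0.45 (SE 0.15, adjusted p = 0.817) was 0.28 (SE 0.13, adjusted p = 0.888) without that array. In the cortex arrays, by comparison, 1442614_at lay between 6.76 and 7.80 in all groups.

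**Figure D4:**
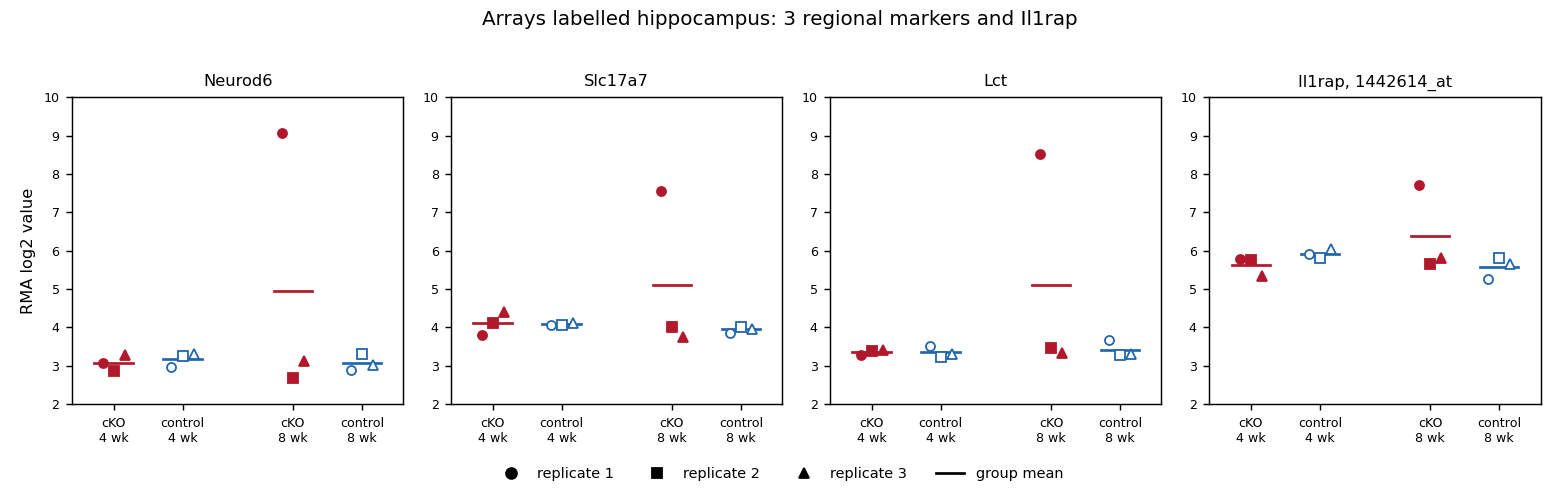
RMA log2 values of Neurod6, Slc17a7 and Lct and of the tested Il1rap probe set in the 12 arrays labelled hippocampus, all on 1 scale. The array of cKO replicate 1 at 8 weeks stands apart in all 4 panels, at 9.05, 7.56, 8.51 and 7.70, and the other 11 lie together.

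Cd14, Tlr2, Il1r1 and Ly96 were also compared without cKO replicate 1 at 8 weeks in the arrays labelled hippocampus, and none was called. Cd14 differed by -0.23, against -0.24 with it, and Tlr2 by -0.11, against -0.24. Il1r1 was 5.99, 5.30 and 5.32 in cKO and 5.38, 5.47 and 5.61 in control mice, and its difference was -0.18 without that array and 0.05 with it. Ly96, below the filter, differed by -0.41 without and -0.30 with it (adjusted p = 0.888 and 0.817).

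The changes were compared between tissues in 1 model of both, with animals as a random block where tissues shared them (11 animals of cortex and hypothalamus, none of the arrays labelled hippocampus). At 4 weeks the change of Ly96 was smaller in the hypothalamus than in the cortex, with a difference of -0.79 (SE 0.24, adjusted p = 0.0932), in a comparison that called 14.8% of the probe sets tested. Ly96 had passed the filter in both tissues only through cKO arrays, in the hypothalamus only those of 8 weeks. The change of Cd14 was larger in the cortex than in the arrays labelled hippocampus, with a difference of 0.99 (SE 0.23, adjusted p = 0.105, 0.794% of probe sets called). Leptomeningeal genes had a median difference of 0.84 in the cortex at that time and of -0.66 in the arrays labelled hippocampus, where 13 of 13 were lower, 9 of them at an unadjusted p under 0.05 and 0 called, with deviations of -0.25, 0.29 and -0.77 in cKO arrays, against 0.65, -0.00 and 0.45 in control arrays. Their part in the difference of Cd14 between these tissues was not tested. The call of Ly96 was lost without cKO replicate 2 or control replicate 1 or 2 of the cortex, or cKO replicate 2 or 3 or control replicate 1 of the hypothalamus. That of Cd14 was lost without replicate 1 or 2 of either cortex group, any cKO array labelled hippocampus, or replicate 2 or 3 of their controls. At 8 weeks the change of Cd14 in the hypothalamus exceeded that in the cortex by 1.29 (SE 0.35) and that in the arrays labelled hippocampus by 1.61 (SE 0.38), and neither was called (adjusted p = 0.574 and 0.420, 0% of probe sets called in both).

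**Figure D5:**
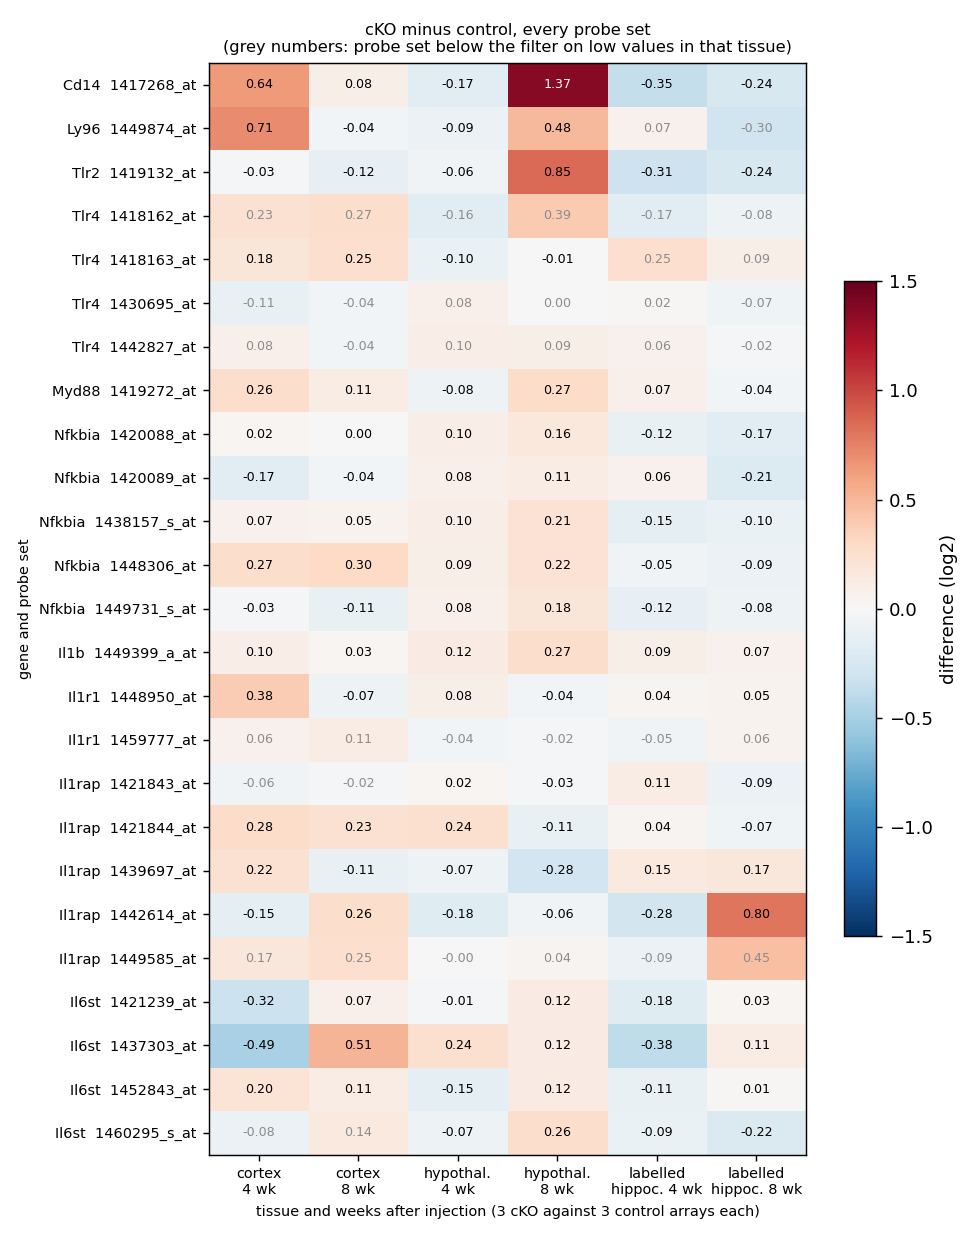
cKO minus control (log2) for all 25 probe sets in the 6 comparisons, each of 3 against 3 arrays, with black or white numbers where the probe set passed the filter in that tissue and grey where it did not. The largest values are those of Cd14 (1.37) and Tlr2 (0.85) in the hypothalamus at 8 weeks, the 0.80 of Il1rap 1442614_at rests on 1 array, and signs differ between probe sets of Il6st and Nfkbia in the cortex at 4 weeks.

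Across all 25 probe sets, 18 were higher in the cKO hypothalamus at 8 weeks and 12 at 4 weeks, against 47% and 46.4% of all annotated probe sets. In the cortex 16 were higher at each time, against 66.1% at 4 and 55.8% at 8 weeks, and in the arrays labelled hippocampus 11 and 10, against 54.3% and 46.1%. In all, 6 probe sets in the hypothalamus at 8 weeks had all cKO arrays above all controls, where 5.35% of all did, namely those of Cd14, Ly96 and Myd88, 1418162_at of Tlr4 and 2 of Nfkbia, and 1 of Il1rap, 1439697_at, had all below (6.76%). The cortex at 8 weeks had 5 probe sets with all above (9.14% of all) and 1 with all below (6.12%). Those above were 1418162_at of Tlr4, 1448306_at of Nfkbia and 1421844_at, 1442614_at and 1449585_at of Il1rap.

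Genes whose levels ran most like the mean deviation of the tested members were named over the 12 arrays of a tissue, as a description. In the hypothalamus these were Bst2, an interferon-induced membrane protein (Pearson's r = 0.98), Cd300c2 (0.98), Cebpa, a myeloid transcription factor (0.98), Ptpn18 (0.97) and Ms4a6d (0.97). They were 0.55 to 1.51 higher in the cKO mice at 8 weeks and within 0.08 of control at 4 weeks, none called. The 12 points fall into 2 high arrays and 10 others, so r rests on cKO replicates 1 and 2 at 8 weeks. In the cortex the genes were Pnpla7 (0.95), Gm5089 (0.94), Lacc1 (0.93), Gstk1 (0.93) and Ppp1r3e (0.93), with cKO differences of 0.19 to 0.43 at 4 weeks, of which that of Ppp1r3e, 0.42 (adjusted p = 0.128), was called.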

How the data were processed

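The authors deposited RMA log2 values of 36 Affymetrix arrays, made in Expression Console for each tissue separately, per their methods. Probe sets were named from the platform annotation: of 45101, 34945 named 1 gene, 932 several, 9160 none, and 64 were controls. The methods kept annotated probe sets called present in at least 3 samples; those calls were not used here, and in their place probe sets were ranked by their third-highest value until the number of genes the methods state was reached. As in the methods, the most variable probe set per gene was tested. Groups (3 arrays each) were compared with limma 3.58.1 in R 4.3.3, 1 fit per tissue, and statmod 1.5.0, with Benjamini-Hochberg adjustment at 15%; the fit was tested on simulated data. A second fit held every annotated probe set (35877). The number of arrays limits the precision, and the smallest p of an exact permutation test of 3 against 3 is 0.1. Members and gene lists were chosen with earlier results of these data known. Named are all members, the 3 lowest-p genes of each list in the cortex at 4 and hypothalamus at 8 weeks, and the 5 genes most like the members in each of these tissues. Like-numbered replicates deviated together in the hypothalamus at 8 weeks (correlations 0.20, 0.26 and 0.27) and not in every pair elsewhere. The labels give 12 cKO and 13 control animals. Figures were drawn with matplotlib. Alternatives covered filters, probe set choice, scaling, test settings, the replicate block and each array left out, and fits without the arrays that stood apart were added after the data were seen.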

Additional observations from a re-analysis of the deposited data

Results flagged for a closer look

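The change of Ly96 differed between tissues at 4 weeks by a test of the difference itself. The change in the hypothalamus minus that in the cortex was -0.79 (SE 0.24, adjusted p = 0.0932 by limma). In the hypothalamus cKO arrays measured 4.83, 4.30 and 4.59, against 4.71, 4.53 and 4.75 in controls, and in the cortex 4.34, 4.54 and 4.53, against 3.79, 3.76 and 3.73 in controls.

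The change of Cd14 at 4 weeks differed likewise, by 0.99 between the cortex and the arrays labelled hippocampus (SE 0.23, adjusted p = 0.105 by limma). In the cortex Cd14 was 6.42, 5.96 and 5.80 in cKO and 5.58, 5.21 and 5.48 in control arrays, and in the arrays labelled hippocampus 5.55, 5.37 and 5.57 in cKO and 5.56, 6.23 and 5.75 in control arrays. Leptomeningeal genes differed in opposite directions in these comparisons: the list had a median difference of 0.84 in the cortex, where 10 of 13 rose, and of -0.66 in the arrays labelled hippocampus, where 13 of 13 were lower, 9 of them at an unadjusted p under 0.05, and 0 were called. Their part in the difference of Cd14 was not tested.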

How the results depend on the processing

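In the cortex at 4 weeks, where Cd14 and Ly96 were called, 0 of the 10 members were called with a stricter filter of 10000 genes, with arrays centred on their median, with quantile normalization, with the 6 arrays of that time alone, by the unpaired t-test, and at a false discovery rate of 5% or 10%. The replicate block also left 0 members there (Cd14 and Ly96, adjusted p = 0.192 and 0.205) and changed no other count of members called. Array weights, and leaving out the arrays that stood apart (chosen after the data were seen), each gave 7 in the cortex at 4 weeks, beside 66% and 62% of all genes. Each gave 6 for the 8-week minus 4-week change of the cortex, beside 50.7% and 48.9%. In the hypothalamus at 8 weeks each of these 2 settings gave 3 members, beside 3.61% and 3.96% of all genes. Without the arrays that stood apart the 8-week minus 4-week change there gave 2, beside 1.75%. Leaving out 1 array at a time gave 0 to 5 members in the cortex at 4 weeks, with 46.3% of all genes called where it gave 5. For the change over time of the cortex it gave 0 to 2, with 13.1% where it gave 2. In the hypothalamus it gave 0 to 3 at 8 weeks, with 3.32% where it gave 3, and 0 to 2 for the change over time, with 2.1% where it gave 2. Between tissues the leave-one-out ranges were 0 to 6 for hypothalamus minus cortex at 4 weeks, 0 to 2 at 8 weeks, 0 to 3 for hypothalamus minus the arrays labelled hippocampus at 8 weeks and 0 to 4 for cortex minus those arrays at 4 weeks. With all arrays these comparisons called 14.8%, 0%, 0% and 0.794% of all probe sets. The shares with 1 array left out are not given here, so these ranges cannot be read against all probe sets. Il6st turned to 0.20 in the cortex and -0.15 in the hypothalamus at 4 weeks with the stricter filter and with the probe set of the highest mean, because both test another probe set. Over single members, 1887 values stayed on their side of the threshold, 86 of them with a change of sign in a difference that was not called and lay within its standard error under at least 1 of the settings, 42 passed it newly, 30 lost it and 4 changed sign beyond their standard error. Causes other than the choice of probe set were not tested. The 3 arrays of a group limit the precision of each difference.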
